A study of Arabidopsis thaliana with 6 samples.

Results

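The genes described here encode proteins of the large (60S) subunit of the cytosolic ribosome in Arabidopsis thaliana and carry a paralog letter in their name. They were chosen by name, as every row whose name is RPL followed by a number and 1 or more letters, which gave 96 of the 22759 named rows. No expression value enters the name rule, but the family was taken up with earlier results of these libraries known, so its fall in hrlp-2 is described here and is not independent support for anything. RNA was sequenced from 3 wild-type (WT) libraries of the Columbia accession (Col) and 3 libraries of the mutant line hrlp-2, which the labels call a knock out of HRLP, a gene for an RNA-binding protein of the hnRNP R-like kind. All seedlings were 9 days old, grew at 23 ± 2 degrees C with 16 h of light and 8 h of darkness a day, and gave their aerial parts for total RNA. Each group had 3 libraries described as biological replicates, with no statement on separate cultures, so p-values measure the spread between these libraries only. A single mutant line was used, and the nature of its allele is not described in the labels.

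A eukaryotic ribosome joins a small 40S and a large 60S subunit. The 60S subunit holds the centre that forms peptide bonds and the tunnel through which the new chain leaves. Plants keep several genes for nearly every ribosomal protein, the letters A, B, C and so on tell these paralogs apart, and the copies encode near-identical proteins that can stand in for each other in part. The 96 names carry 35 numbers, of which 30 have at least 2 rows and 5 have a single row. In 9 numbers the name also covers a different protein written with a small a, so that RPL10A is a paralog of L10 while RPL10AA is a paralog of L10a. Read in that way the rows name 45 proteins, and 20 rows belong to the small-a forms. The case was not kept in the files, so names such as RPL23A, RPL27A and RPL36A can be read as either form. They are kept under their number here, and they count as the plain form wherever the forms are set apart. RPL21M is described in the reference notes as a mitochondrial protein and is the 1 row of the set that is not cytosolic by that note.

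Values are CPM, that is, reads assigned to a gene scaled to the same total in each library, so a lower value is a smaller share of the library. In bulk tissue, fewer cells of a type and less RNA per cell cannot be told apart. How the read counter treated reads that match several paralogs is not given in the sources used here, so the division of reads among near-identical copies is uncertain, and sums over a number are given beside single rows. One CPM stood for 20.1 to 25.2 reads in the 6 libraries. HRLP itself measured 30.03, 33.04 and 30.37 CPM (WT) against 16.76, 17.03 and 15.88 CPM (hrlp-2), so the transcript was lower in all mutant libraries but still present (log2 fold change -0.87). The value is a sum over the whole gene, so the part of it that was read is not known. Of the green-tissue markers, 2 of 4 were tested, and they went in opposite directions. LHCB1.1 fell to 93.9% and LHCB2.1 rose to 102.6% of WT. Their WT means were 12260 and 1107 CPM, so their sum mostly reflects LHCB1.1. That sum was 13216 to 13459 CPM in WT and 12408 to 12799 CPM in hrlp-2, lower in every hrlp-2 library, like the summed RPL rows. Its part in the RPL values was not tested. The summed root markers CASP1, CASP2, CASP4 and COBL9 reached at most 0.83 CPM, and CASP2 and CASP4 were at 0 in all libraries.

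All 96 members passed the filter on low values (at least 0.5 CPM in at least 3 libraries), and WT means ran from 12.39 CPM for RPL10B to 958.7 CPM for RPL23A, with a median of 281.2 CPM. In hrlp-2, 73 of the 96 members fell and 0 rose at an adjusted p under 0.05 (limma, Benjamini-Hochberg adjustment over the 18643 rows tested). At an unadjusted p under 0.05 the counts were 75 lower and 0 higher. That is 76.0% of the members, where 9.31% of all tested rows fell and 11.0% rose. After scaling between libraries, by factors of 0.9901 to 1.013, all 3 hrlp-2 libraries lay under all 3 WT libraries for 77 members (80.2%), against 16.2% of all tested rows. Values in CPM are printed as deposited and fold changes after this scaling, so a log2 fold change near 0 can differ in sign from the CPM. The falls were small. The 73 members stood at 73.7% to 94.3% of their WT mean, with a median of 87.6%, and 17 of them had a log2 fold change under -0.25. The median log2 fold change over the 96 members was -0.14, with a range from -0.42 (RPL14A) to 0.04 (RPL3A), while the median over all tested rows was 0.00. Of the 23 members that did not pass, 17 had a value below 0 and 6 above 0. The last member inside the threshold was RPL4D (adjusted p = 0.0441) and the first outside was RPL13AD (adjusted p = 0.056), which passed under the other scalings and a filter of 1 CPM (adjusted p = 0.0202 to 0.0499).

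**Figure D1:**
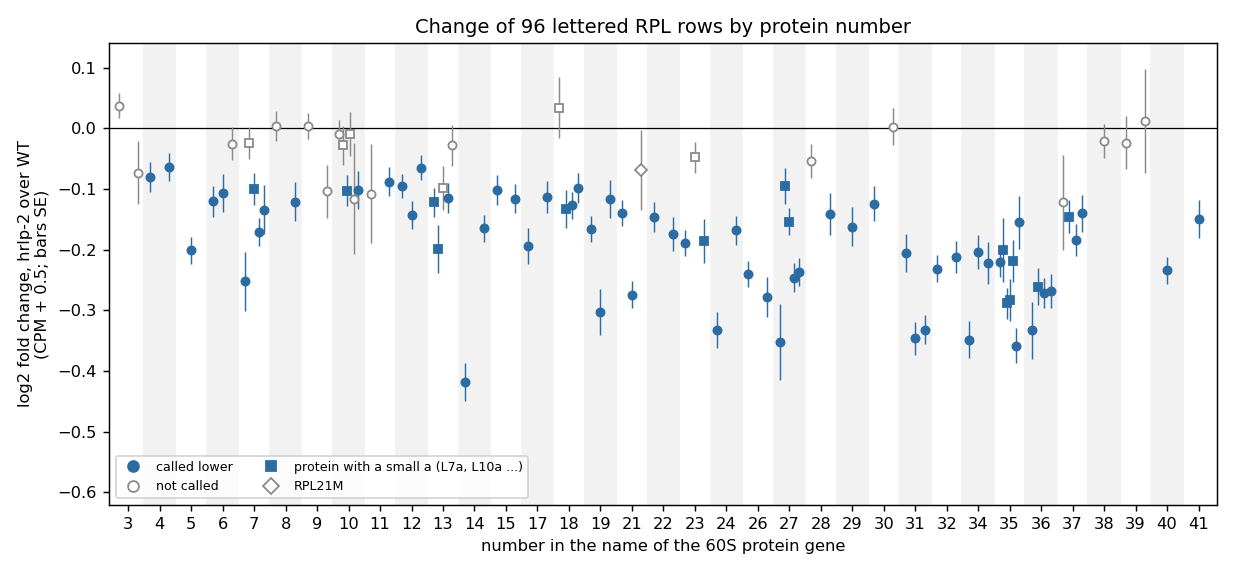
Log2 fold change of hrlp-2 over WT on the log2(CPM + 0.5) scale (y axis, bars show the SE, 3 libraries per group) for the 96 lettered RPL rows, placed by the number in their name (x axis). Filled points passed the test and all lie below 0, squares are small-a forms, and the lowest point is RPL14A at -0.42.

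Summed over the 96 members, the libraries held 29991, 29953 and 29531 CPM (WT) against 26181, 26603 and 26806 CPM (hrlp-2). These sums are 2.95% to 3.0% of each WT library and 2.62% to 2.68% of each hrlp-2 library, and the groups did not overlap. The hrlp-2 mean was 89.0% of the WT mean (26530 ± 318.6 against 29820 ± 255.2 CPM, SD, n = 3 each; exact permutation test, two-sided, p = 0.1, the smallest that 3 against 3 libraries can give). Spread within a group was small, with a median coefficient of variation over members of 2.19% in WT and 2.06% in hrlp-2. Within hrlp-2, replicate 1 was the lowest library for 52 of the 96 members. Another 70 rows are named by locus only and have a reference product that names a ribosomal L protein, and they are not in these sums. Neither they nor the 19 RPL rows without a letter enter the sums and shares per number or protein below. A total of a number or protein is thus that of its lettered rows and can miss paralogs.

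**Figure D2:**
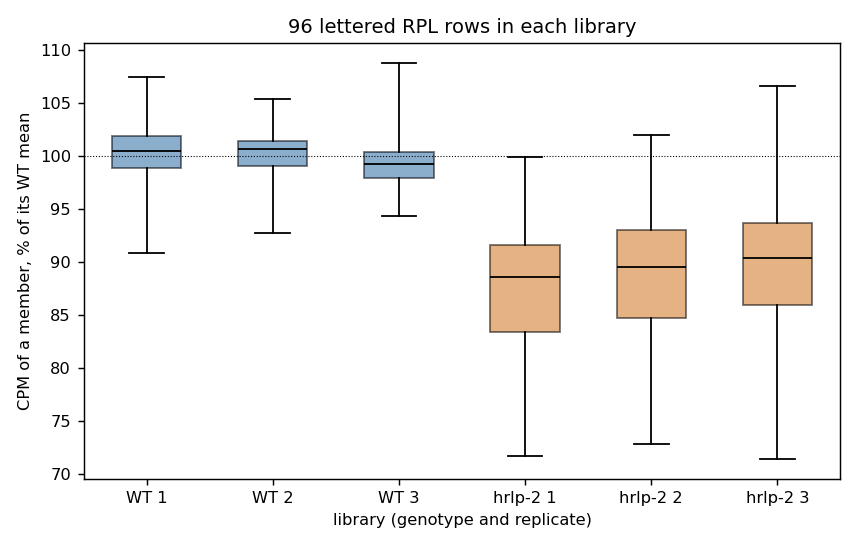
CPM of each of the 96 members as a percentage of its own WT mean (y axis) in each library (x axis), with boxes for the quartiles, a line for the median and whiskers for the full range. The medians of the WT libraries are 100.5%, 100.7% and 99.2%, and those of the hrlp-2 libraries are 88.6%, 89.5% and 90.4%.

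The lettered genes of the small (40S) subunit were compared on the same scale. Of 79 such rows 77 were tested, 38 fell and 1 rose, with a median log2 fold change of -0.09, and their summed CPM in hrlp-2 was 92.3% of WT. The ratio of the summed RPL rows to the summed RPS rows was 1.668, 1.688 and 1.671 in WT and 1.615, 1.617 and 1.613 in hrlp-2. The ratio was thus lower in each hrlp-2 library than in each WT library, where a two-sided exact permutation test cannot go below p = 0.1. It covers lettered rows only, without the RPL rows named by locus or lacking a letter, and is not a ratio of whole subunits. Of the 19 RPL rows without a paralog letter, 5 fell and 2 rose, with a median of -0.01. Over all tested rows, 9.31% fell and 11.0% rose.

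**Figure D3:**
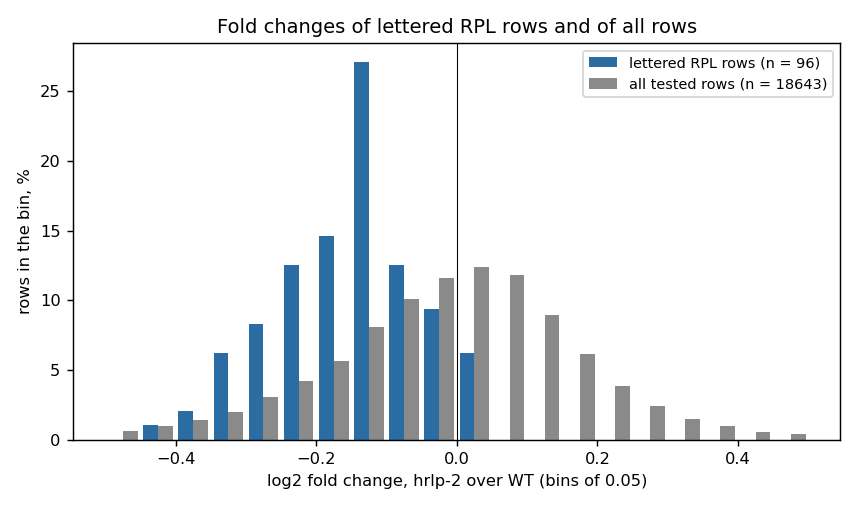
Percentage of rows (y axis) in bins of log2 fold change 0.05 wide (x axis) for the 96 lettered RPL rows and for all 18643 tested rows, shown from -0.5 to 0.5. The bin from -0.15 to -0.10 holds 27.08% of the members and 8.1% of all rows, and no member lies above 0.05.

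Promoters of plant ribosomal protein genes are known for short elements that they often share, among them the telo box and site II elements. In the TAIR10.1 gene table of RefSeq, 11 members had a locus without ambiguity, 8 by symbol and 3 by synonym, and 85 were left without one. The 250 bases before the annotated start of each were searched on both strands for the telo box AAACCCTA and for site II written as TGGGCC or TGGGCT. Site II occurred in 8 of the 11, against 19.2% of 27443 promoters of the same length, and the telo box in 1 of the 11, against 4.5%. Both elements occurred in 1 of the 11, against 1.4% of all promoters. Since these members changed by different amounts, 4 of their promoters are shown, both L24 paralogs, RPL5B and RPL27AB, read from the RefSeq genome of TAIR10.1 5′ to 3′ on the strand of the gene and ending at the base before its start. Capitals mark matches on either strand, none of which overlaps another in these 4. The promoter of RPL24A is chr2:15352014-15352263 (minus strand), that of RPL24B is chr3:19662026-19662275 (minus strand), that of RPL5B is chr5:15903029-15903278 (plus strand) and that of RPL27AB is chr1:8262675-8262924 (plus strand).
RPL24A: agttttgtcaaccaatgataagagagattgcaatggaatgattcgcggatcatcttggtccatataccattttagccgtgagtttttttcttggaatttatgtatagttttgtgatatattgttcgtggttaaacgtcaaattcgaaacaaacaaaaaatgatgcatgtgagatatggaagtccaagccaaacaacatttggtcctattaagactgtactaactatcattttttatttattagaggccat
RPL24B: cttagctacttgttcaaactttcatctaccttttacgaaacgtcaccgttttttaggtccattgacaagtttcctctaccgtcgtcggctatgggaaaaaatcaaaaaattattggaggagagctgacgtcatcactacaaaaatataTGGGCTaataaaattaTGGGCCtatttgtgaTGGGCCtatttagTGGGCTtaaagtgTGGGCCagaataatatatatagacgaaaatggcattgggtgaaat
RPL5B: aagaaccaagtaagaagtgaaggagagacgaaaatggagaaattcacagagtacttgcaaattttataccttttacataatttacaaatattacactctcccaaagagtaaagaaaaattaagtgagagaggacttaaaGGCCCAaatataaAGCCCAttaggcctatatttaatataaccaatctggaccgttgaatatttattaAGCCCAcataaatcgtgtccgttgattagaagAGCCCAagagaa
RPL27AB: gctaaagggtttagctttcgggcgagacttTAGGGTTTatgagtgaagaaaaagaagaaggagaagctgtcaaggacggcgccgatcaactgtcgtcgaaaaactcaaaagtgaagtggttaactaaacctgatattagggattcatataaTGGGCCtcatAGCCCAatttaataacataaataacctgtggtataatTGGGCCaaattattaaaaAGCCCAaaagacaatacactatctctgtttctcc
RPL24B holds 5 site II matches, at 45 to 102 bases before the start, RPL5B holds 4 and RPL27AB holds 4 beside its telo box. RPL24A holds none of these letters in the window. The log2 fold changes were -0.33 for RPL24A, -0.17 for RPL24B, -0.20 for RPL5B and -0.10 for RPL27AB. RPL23AA and RPL23AB, also without a match in the window, had log2 fold changes of -0.05 and -0.18. Site II matches were also present before RPL10A, RPL18AA, RPL3B and RPL10B, which did not pass the test (log2 fold changes -0.01, 0.03, -0.07 and -0.12). RPL10C, with 1 match, passed at -0.10. A match is a description of the letters only.

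Levels of different genes were compared per kilobase of coding sequence, which only the 11 matched members allow. RPL27AB (AT1G23290, chromosome 1, 8262925 to 8263739, plus strand) was the highest in WT at 897.9 ± 59.5 CPM per kb (SD, n = 3 here and below). RPL10A (AT1G14320, chromosome 1, 4888114 to 4889704, plus strand), known for the suppressor mutant SAC52, followed at 856 ± 14, and the WT libraries of these top ranks overlapped. RPL24B (AT3G53020, chromosome 3, 19660488 to 19662025, minus strand), known as STV1 for its part in reinitiation after upstream open reading frames, measured 759 ± 11.6. RPL23AA (AT2G39460, chromosome 2, 16474149 to 16476141, plus strand) measured 746 ± 7.97, and its libraries overlapped those of RPL24B but not those of RPL10A or RPL5B. RPL5B (AT5G39740, chromosome 5, 15903279 to 15905532, plus strand) and RPL24A (AT2G36620, chromosome 2, 15350268 to 15352013, minus strand) measured 631 ± 15.5 and 609 ± 29.4 and overlapped each other. The remaining WT levels did not overlap between neighbours in the order. RPL10C (AT1G66580) measured 241 ± 6.35, RPL23AB (AT3G55280) 213 ± 3.44, RPL18AA (AT1G29970) 43.1 ± 0.625, RPL3B (AT1G61580) 32.8 ± 0.923 and RPL10B (AT1G26910) 18.7 ± 1.32 CPM per kb. The highest level was 48.0 times the lowest, and 38.5 times when levels were taken per kilobase of transcript, where the order changes. Per transcript, RPL10A led at 506.7 ± 8.3 CPM per kb, ahead of RPL27AB at 482.6 ± 32. RPL23AA moved from rank 4 to rank 6 at 230.4 ± 2.46, under RPL5B (425.6 ± 10.4) and RPL24A (309 ± 14.9), so its place against these depends on the length used. Paralogs of 1 protein thus stood far apart, since RPL10A, RPL10C and RPL10B had WT levels of 856, 241 and 18.7 CPM per kb.

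**Figure D4:**
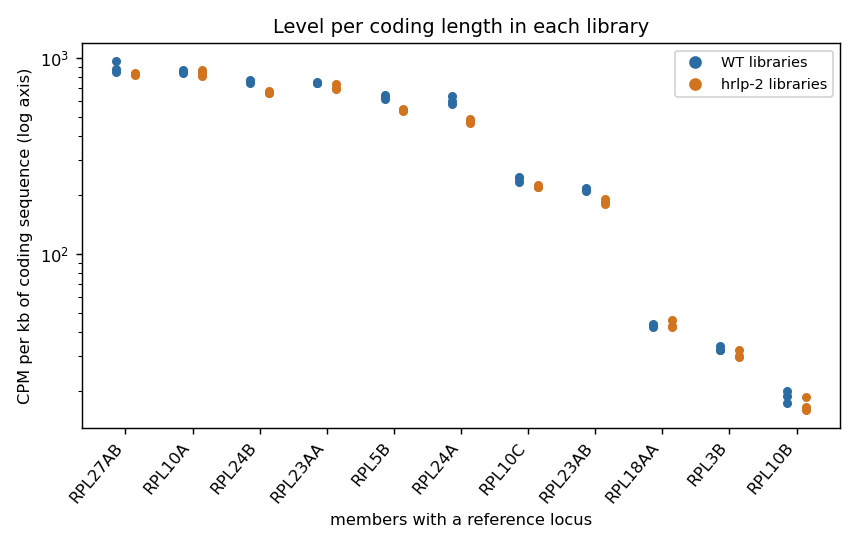
CPM per kilobase of coding sequence (y axis, log scale) for the 11 members with a reference locus (x axis), with 1 point per library and 3 libraries per group. WT means run from 897.9 for RPL27AB to 18.7 for RPL10B, and the hrlp-2 points lie under the WT points without overlap for RPL27AB, RPL24B, RPL23AA, RPL5B, RPL24A, RPL10C and RPL23AB.

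Among proteins at the catalytic core and the binding sites of translation factors, several rows did not pass the test. L3 reaches into the peptidyl transferase centre. RPL3A measured 675, 685 and 679.9 CPM (WT) against 679, 687 and 697 CPM (hrlp-2), with overlapping groups as deposited and all hrlp-2 libraries above all WT libraries after scaling (log2 fold change 0.04, SE 0.0206, limma adjusted p = 0.231), and RPL3B measured 37.8, 39.6 and 37.7 CPM (WT) against 34.7, 35.3 and 37.9 CPM (hrlp-2), a log2 fold change of -0.07 (limma adjusted p = 0.362). Neither passed the test, and the sum of both rows in hrlp-2 was 100.7% of WT. L9 lies near the factor-binding site. RPL9B measured 684, 661 and 655 CPM (WT) against 657, 667 and 653 CPM (hrlp-2), a log2 fold change of 0.00 (limma adjusted p = 0.933), and RPL9D measured 75.8, 68.8 and 73.7 CPM (WT) against 64.6, 65.9 and 69.7 CPM (hrlp-2), a log2 fold change of -0.10 (limma adjusted p = 0.09), with overlapping groups in both. RPL9D passed with the deposited values not rescaled (adjusted p = 0.0399) and without WT replicate 2 (adjusted p = 0.0236). L10 joins the 60S subunit late in its maturation, before the subunits meet. RPL10A measured 568, 572 and 555 CPM (WT) against 535, 552 and 573 CPM (hrlp-2) and RPL10B measured 13.2, 11.5 and 12.4 CPM (WT) against 10.5, 10.9 and 12.2 CPM (hrlp-2), neither of which passed (adjusted p = 0.825 and 0.417). RPL10C, a paralog whose transcript is known to rise in senescing leaves, fell from 162, 155 and 162 CPM (WT) to 145, 149 and 146 CPM (hrlp-2), a log2 fold change of -0.10 (limma adjusted p = 0.0195), a call that was lost when WT replicate 1 or 3, or hrlp-2 replicate 1 or 3, was left out (adjusted p = 0.068 to 0.0897).

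L12 forms the base of the stalk that recruits translation factors, and its 3 rows all fell. RPL12A measured 956, 967 and 946 CPM (WT) against 893, 876 and 880.0 CPM (hrlp-2), a log2 fold change of -0.10 (limma adjusted p = 0.000443). RPL12B stood at 89.3% and RPL12C at 94.2% of WT (adjusted p = 1.61e-05 and 0.0214). The call for RPL12C was lost without WT replicate 1 (adjusted p = 0.0704), without hrlp-2 replicate 1 (adjusted p = 0.0882) and with no filter on low values (adjusted p = 0.0611). L5 and L11 bind the 5S ribosomal RNA before it enters the subunit. RPL5B, known from the leaf-shape mutant oligocellula7, measured 584, 569 and 556 CPM (WT) against 487, 484 and 495 CPM (hrlp-2) and fell to 85.8% of WT (log2 fold change -0.20, SE 0.0225, limma adjusted p = 3.47e-08). RPL11C measured 511, 509.9 and 508 CPM (WT) against 455, 480.2 and 484 CPM (hrlp-2), a log2 fold change of -0.09 (limma adjusted p = 0.0075, and 0.0868 without hrlp-2 replicate 1), and RPL11A measured 14.3, 14.5 and 13.7 CPM (WT) against 13.4, 12.9 and 12.5 CPM (hrlp-2), a log2 fold change of -0.11 (limma adjusted p = 0.396). The groups did not overlap for any of these 3 rows.

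L8 lies close to the peptidyl transferase centre, and 1 of its rows passed. RPL8A measured 385, 367 and 369 CPM (WT) against 363, 372 and 373 CPM (hrlp-2), with overlapping groups (log2 fold change 0.00, limma adjusted p = 0.933), while RPL8C measured 158, 161 and 159 CPM (WT) against 137, 147 and 149 CPM (hrlp-2), a log2 fold change of -0.12 (limma adjusted p = 0.00628). RPL8C did not pass without hrlp-2 replicate 1 (log2 fold change -0.09, adjusted p = 0.0713). The log2 fold change of RPL8A was -0.01 with upper-quartile scaling and -0.02 with the deposited values as they are. The share of RPL8A in the CPM of number 8 was 70.95%, 69.55% and 69.87% in WT and 72.52%, 71.74% and 71.5% in hrlp-2.

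L6 and L14 are neighbours on the solvent side of the subunit, and RPL14A had the largest fall of the set. RPL14A measured 183, 191 and 184 CPM (WT) against 139, 139 and 133 CPM (hrlp-2), with all 3 hrlp-2 libraries under all WT libraries, at 73.7% of the WT mean (log2 fold change -0.42, SE 0.0307, limma adjusted p = 2.97e-12). Its partner RPL14B measured 546, 533 and 549.7 CPM (WT) against 481, 467 and 485 CPM (hrlp-2), a log2 fold change of -0.17 (SE 0.023, limma adjusted p = 1.76e-06). The share of RPL14A in the L14 total was 25.1%, 26.33% and 25.05% in WT and 22.41%, 22.98% and 21.49% in hrlp-2, a difference of -3.2 percentage points that was the largest among 91 shares. Of the L6 rows, RPL6A measured 294, 298 and 295 CPM (WT) against 268, 272 and 264 CPM (hrlp-2) and fell (log2 fold change -0.12, limma adjusted p = 0.000683). RPL6B measured 187, 179.7 and 177 CPM (WT) against 163, 173 and 163 CPM (hrlp-2), a log2 fold change of -0.11 (limma adjusted p = 0.0138), a call lost without WT replicate 1, hrlp-2 replicate 1 or hrlp-2 replicate 3 (adjusted p = 0.0798, 0.0628 and 0.0826). RPL6C measured 247, 248 and 241 CPM (WT) against 237, 242 and 235 CPM (hrlp-2) and did not pass (log2 fold change -0.03, limma adjusted p = 0.577), and its groups overlapped. The share of RPL6C in the L6 total was higher in each hrlp-2 library (35.48%, 35.24% and 35.47%) than in each WT library (33.95%, 34.22% and 33.79%).

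Number 7 covers the paralogs of L7 and, with a small a, those of L7a. RPL7A measured 48.1, 48.7 and 48.7 CPM (WT) against 42.6, 39.4 and 38.3 CPM (hrlp-2), the largest fall of the L7 rows at 82.7% of WT (log2 fold change -0.25, SE 0.0489, limma adjusted p = 0.000242). RPL7B measured 454, 468 and 473 CPM (WT) against 407, 408 and 407 CPM (hrlp-2), a log2 fold change of -0.17 (limma adjusted p = 1.19e-06), and RPL7D measured 82.4, 84.1 and 80 CPM (WT) against 71.8, 71.5 and 78.2 CPM (hrlp-2), a log2 fold change of -0.13 (limma adjusted p = 0.0148). The call for RPL7D was lost without WT replicate 2, hrlp-2 replicate 1 or hrlp-2 replicate 2 (adjusted p = 0.063, 0.0716 and 0.0827). Of the L7a rows, RPL7AB fell from 355, 341 and 332 CPM (WT) to 316, 314 and 316 CPM (hrlp-2), a log2 fold change of -0.10 (limma adjusted p = 0.00487). RPL7AA measured 261, 271 and 259.7 CPM (WT) against 257, 254 and 256 CPM (hrlp-2), without overlap but short of the threshold (log2 fold change -0.02, limma adjusted p = 0.574). RPL7AA held 21.71%, 22.34% and 21.75% of the CPM of number 7 in WT and 23.47%, 23.36% and 23.4% in hrlp-2. Within L7a alone its share went from 43.48 ± 1.03% to 44.77 ± 0.07%.

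L24 spans the subunit interface. RPL24A measured 287, 315 and 296 CPM (WT) against 234, 239 and 229 CPM (hrlp-2), a fall to 78.2% of WT (log2 fold change -0.33, SE 0.0292, limma adjusted p = 2.12e-10). RPL24B measured 372, 377 and 365 CPM (WT) against 322, 324 and 331 CPM (hrlp-2), a log2 fold change of -0.17 (SE 0.0239, limma adjusted p = 2.62e-06). The share of RPL24A was 43.56%, 45.58% and 44.73% in WT and 42.1%, 42.44% and 40.92% in hrlp-2, without overlap. L30 is a small protein of the same face of the subunit. RPL30B measured 179, 179 and 178 CPM (WT) against 161, 158 and 166 CPM (hrlp-2), a log2 fold change of -0.12 (limma adjusted p = 0.0022), while RPL30C measured 169, 172 and 172 CPM (WT) against 166, 174 and 167 CPM (hrlp-2), with overlapping groups (log2 fold change 0.00, limma adjusted p = 0.959). Of the summed CPM of these L30 rows, RPL30B held 51.42%, 50.97% and 50.91% in WT and 49.22%, 47.51% and 49.94% in hrlp-2, without overlap.

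**Figure D5:**
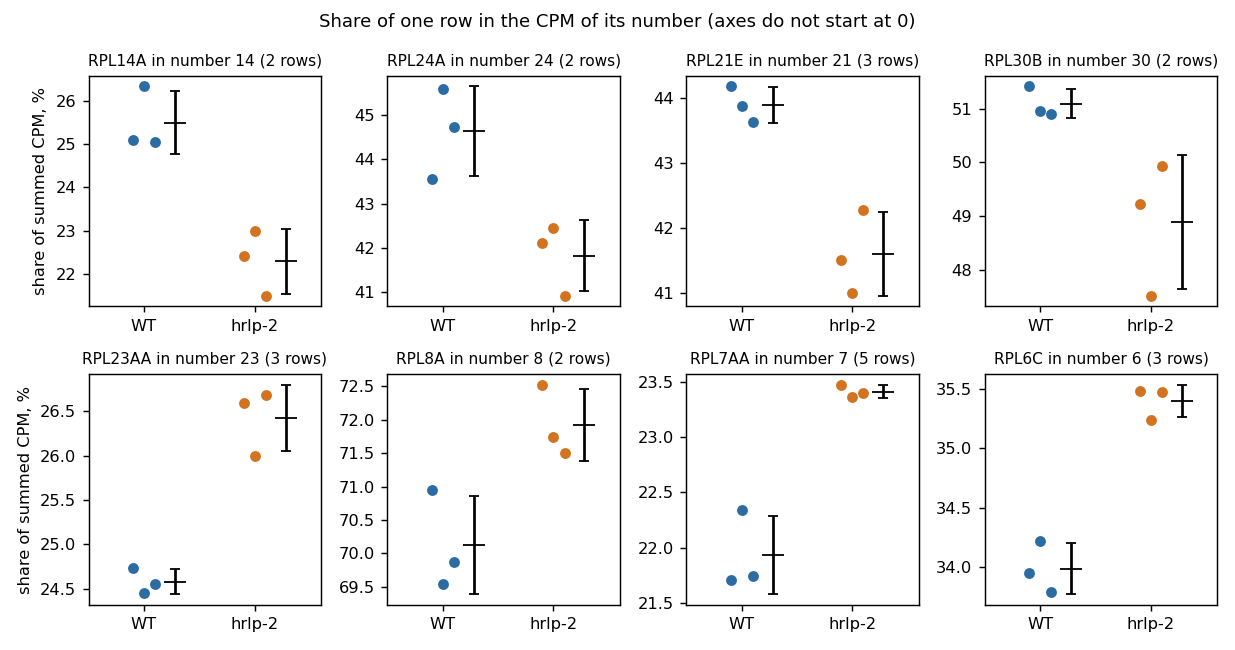
Share of 1 row in the summed CPM of its number (y axis, percent, axes not starting at 0) in the 3 WT and 3 hrlp-2 libraries (x axis), with the mean and SD beside the points. RPL14A, RPL24A, RPL21E and RPL30B have lower shares in every hrlp-2 library, and RPL23AA, RPL8A, RPL7AA and RPL6C have higher ones.

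Several proteins of the set line the mouth of the exit tunnel, where the new chain emerges. L31 is one of them, and its rows summed to 841, 862 and 836 CPM (WT) against 666, 679.5 and 667 CPM (hrlp-2), or 79.2% of WT, the lowest percentage among the 35 numbers. RPL31A measured 139, 139 and 136 CPM (WT) against 118, 116 and 119 CPM (hrlp-2), a log2 fold change of -0.20 (limma adjusted p = 8.79e-06). RPL31B measured 261, 267 and 264 CPM (WT) against 203, 209 and 202 CPM (hrlp-2), at 77.6% of WT (log2 fold change -0.35, SE 0.027, limma adjusted p = 1.34e-11). RPL31C measured 442, 457 and 436 CPM (WT) against 345, 354 and 346 CPM (hrlp-2), at 78.3% of WT (log2 fold change -0.33, SE 0.0239, limma adjusted p = 2.01e-12). Every hrlp-2 library lay under every WT library for the L31 rows. RPL31A held a larger share of the total in hrlp-2 (17.66%, 17.14% and 17.89%) than in WT (16.49%, 16.11% and 16.22%).

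L35, another protein of the tunnel mouth, shares its number with L35a, and all 7 rows of the number fell. RPL35A measured 482, 511 and 499 CPM (WT) against 418, 416 and 429 CPM (hrlp-2), a log2 fold change of -0.22 (limma adjusted p = 1.6e-08). RPL35B fell most, from 189, 193 and 193 CPM (WT) to 145, 148 and 149 CPM (hrlp-2), a log2 fold change of -0.36 (SE 0.0293, limma adjusted p = 4.09e-11). RPL35C measured 66.5, 67.9 and 71.7 CPM (WT) against 61.6, 57.4 and 63.4 CPM (hrlp-2), a log2 fold change of -0.15 (limma adjusted p = 0.0103), and its call did not hold without WT replicate 3 (adjusted p = 0.0883) or without hrlp-2 replicate 2 (adjusted p = 0.0935). Within the L35 rows RPL35B held 25.27 ± 0.3% in WT and 23.41 ± 0.32% in hrlp-2, without overlap. Of the L35a rows, RPL35AB measured 302, 310.2 and 307 CPM (WT) against 252, 246 and 245 CPM (hrlp-2), a log2 fold change of -0.29 (SE 0.0256, limma adjusted p = 2.62e-10). RPL35AC measured 117, 114 and 118 CPM (WT) against 93.2, 94 and 95.8 CPM (hrlp-2), a log2 fold change of -0.28 (limma adjusted p = 1.36e-07), and RPL35AD measured 180.1, 169 and 169 CPM (WT) against 145, 139 and 154 CPM (hrlp-2), a log2 fold change of -0.22 (limma adjusted p = 1.23e-05). RPL35AA measured 45.5, 41.1 and 42.1 CPM (WT) against 35.4, 36.4 and 38.5 CPM (hrlp-2), a log2 fold change of -0.20 (limma adjusted p = 0.00558, and 0.0542 without WT replicate 1). The groups did not overlap for any of the 7.

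L19 and L23a also sit at the tunnel mouth, and L23a is the docking site of the signal recognition particle. RPL19A measured 762, 775 and 746 CPM (WT) against 652, 681 and 674 CPM (hrlp-2), a log2 fold change of -0.17 (limma adjusted p = 5.94e-07), and its paralog RPL19B measured 119, 125 and 121 CPM (WT) against 92.1, 104 and 97.2 CPM (hrlp-2), at 80.0% of WT (log2 fold change -0.30, SE 0.0379, limma adjusted p = 2.81e-07). RPL19C measured 141, 146 and 147 CPM (WT) against 132, 132 and 130.5 CPM (hrlp-2), a log2 fold change of -0.12 (limma adjusted p = 0.00694). The share of RPL19B in the L19 total was lower in hrlp-2 (10.51%, 11.28% and 10.79%) than in WT (11.67%, 11.99% and 11.96%). RPL23AA measured 349, 342 and 342 CPM (WT) against 322, 326 and 338 CPM (hrlp-2), with no overlap as deposited but overlap after scaling, and did not pass (log2 fold change -0.05, limma adjusted p = 0.188). RPL23AB measured 99.3, 99.4 and 96.6 CPM (WT) against 88.2, 84.8 and 83 CPM (hrlp-2) and fell to 86.7% of WT (log2 fold change -0.18, limma adjusted p = 0.000261). RPL23A, whose name can also be read as a form of L23a, measured 962, 958 and 956 CPM (WT) against 799.9, 842 and 846 CPM (hrlp-2), a log2 fold change of -0.19 (limma adjusted p = 4.19e-08). RPL23AA held 24.73%, 24.45% and 24.55% of number 23 in WT and 26.59%, 26% and 26.69% in hrlp-2. Within L23a alone, with RPL23A left out, the share of RPL23AA went from 77.78 ± 0.26% to 79.37 ± 0.91%.

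Other tunnel-side proteins moved by differing amounts. L26 had a pair of rows that both fell, RPL26A to 83.5% and RPL26B to 81.3% of WT (adjusted p = 3.77e-10 and 1.01e-07), and their sum stood at 83.1% of WT. L17 rows stood at 86.2% and 91.1% and L22 rows at 89.1% and 87.4% of WT, and all passed. L4, which reaches into the tunnel, had smaller falls, with RPL4A at 93.3% and RPL4D at 94.3% of WT (adjusted p = 0.0195 and 0.0441). The RPL4D call was lost when any library other than WT replicate 2 was left out (adjusted p = 0.068 to 0.146), and with the replicate block (adjusted p = 0.0571) or no filter (adjusted p = 0.0715). That of RPL4A was lost without WT replicate 1, hrlp-2 replicate 1 or hrlp-2 replicate 3 (adjusted p = 0.0749, 0.0558 and 0.0522). L39, a small protein inside the tunnel, did not pass, with RPL39A at 108, 98.4 and 101 CPM (WT) against 91, 104 and 105 CPM (hrlp-2), a log2 fold change of -0.02 (limma adjusted p = 0.764) and RPL39B at 12.7, 11.9 and 14 CPM (WT) against 12.7, 12.7 and 12.8 CPM (hrlp-2), a log2 fold change of 0.01 (limma adjusted p = 0.947).

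Of the L34 rows all fell, and their sum stood at 82.5% of WT. RPL34A measured 268, 293 and 281 CPM (WT) against 225, 217 and 209.7 CPM (hrlp-2), a log2 fold change of -0.35 (SE 0.0303, limma adjusted p = 1.82e-10). RPL34B measured 399, 404 and 373 CPM (WT) against 323, 342 and 341 CPM (hrlp-2), a log2 fold change of -0.20 (limma adjusted p = 1.09e-06), and RPL34C measured 125, 121 and 118 CPM (WT) against 101, 106 and 102 CPM (hrlp-2), a log2 fold change of -0.22 (limma adjusted p = 9.47e-06). The groups did not overlap in any of them, while the shares within L34 did, at 35.34 ± 1.33% in WT and 33.16 ± 1.36% in hrlp-2 for RPL34A. Number 36 covers L36 and L36a, and the latter lies at the exit site for transfer RNA. RPL36A measured 82.7, 85.8 and 77.3 CPM (WT) against 58.7, 69.3 and 64.3 CPM (hrlp-2), a log2 fold change of -0.33 (SE 0.0475, limma adjusted p = 2.56e-06), and RPL36AB measured 246, 237 and 232 CPM (WT) against 187, 203 and 198 CPM (hrlp-2), a log2 fold change of -0.26 (limma adjusted p = 9.2e-08). RPL36B measured 403, 395 and 396 CPM (WT) against 318, 323 and 334 CPM (hrlp-2), a log2 fold change of -0.27 (limma adjusted p = 3.85e-10), and RPL36C measured 262, 279 and 269 CPM (WT) against 216, 224 and 223 CPM (hrlp-2), a log2 fold change of -0.27 (limma adjusted p = 5.99e-09). All 4 fell, with a range between rows of 0.072 in log2 fold change, and no share within the number separated the groups.

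Number 27 had the widest range between rows, 0.257 in log2 fold change, from RPL27A to RPL27AB. These are different proteins when RPL27A counts as L27. By protein, the L27 rows then spanned 0.115 and the L27a rows 0.059, and the widest range was 0.253 for L14. RPL27A, whose name can be read as L27 or L27a, measured 26.6, 26.9 and 26.7 CPM (WT) against 20.6, 19.5 and 21.6 CPM (hrlp-2), a log2 fold change of -0.35 (SE 0.0629, limma adjusted p = 8.17e-05). RPL27B measured 401, 399.9 and 387 CPM (WT) against 322, 332 and 333 CPM (hrlp-2), a log2 fold change of -0.25 (limma adjusted p = 2.86e-09), and RPL27C measured 607, 617 and 617 CPM (WT) against 502, 506 and 533 CPM (hrlp-2), a log2 fold change of -0.24 (limma adjusted p = 1.99e-09). Among L27a rows, RPL27AC measured 643, 669 and 651 CPM (WT) against 572, 572 and 596 CPM (hrlp-2), a log2 fold change of -0.15 (limma adjusted p = 2.94e-06). RPL27AB measured 423, 385 and 372 CPM (WT) against 358, 363 and 367 CPM (hrlp-2), a log2 fold change of -0.10 (limma adjusted p = 0.0227), with WT replicate 1 well above the other WT libraries. Without WT replicate 1 its log2 fold change was -0.04 (adjusted p = 0.273), and the call was also lost without hrlp-2 replicate 1 or 2 (adjusted p = 0.0802 and 0.0597) and with no filter on low values (adjusted p = 0.115). Number 21 held RPL21A at 706, 733 and 725 CPM (WT) against 639, 657 and 639 CPM (hrlp-2), a log2 fold change of -0.14 (limma adjusted p = 8.95e-06) and RPL21E at 576, 591 and 578 CPM (WT) against 469, 471 and 483 CPM (hrlp-2), a log2 fold change of -0.27 (SE 0.022, limma adjusted p = 2.52e-11). The row RPL21M measured 21.1, 22.1 and 21.5 CPM (WT) against 21.3, 19.8 and 19.7 CPM (hrlp-2), with overlapping groups (log2 fold change -0.07, limma adjusted p = 0.526). RPL21E held 44.18%, 43.88% and 43.63% of number 21 in WT and 41.5%, 41% and 42.28% in hrlp-2, and without RPL21M its share went from 44.62 ± 0.28% to 42.35 ± 0.65%.

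Some of the remaining numbers held rows that fell beside rows that did not pass, and in others all rows fell. Of the L10a rows, RPL10AB, known as PGY1 for its part in leaf patterning, measured 426, 399 and 408 CPM (WT) against 374, 372 and 386 CPM (hrlp-2) and fell (log2 fold change -0.10, limma adjusted p = 0.00364), while RPL10AA and RPL10AC stood at 96.7% and 98.0% of WT with overlapping groups and did not pass. RPL13B fell to 91.0%, RPL13AB to 90.6% and RPL13AC to 85.9% of WT, whereas RPL13D at 96.7% and RPL13AD at 92.1% did not pass, although neither overlapped WT. RPL18B, RPL18C and RPL18AC fell to 90.3%, 92.1% and 89.9% of WT, and RPL18AA measured 40.7, 40.6 and 39.6 CPM (WT) against 39.4, 39.9 and 43 CPM (hrlp-2) with overlapping groups and did not pass (log2 fold change 0.03, limma adjusted p = 0.692). Within L18a alone the share of RPL18AA went from 19.88 ± 0.42% in WT to 21.81 ± 0.68% in hrlp-2, without overlap. The L15 rows (RPL15A at 91.9%, RPL15B at 91.0%) and the L32 rows (RPL32A at 84.0%, RPL32B at 85.1%) all fell. RPL28C fell to 89.4% of WT and RPL28A, at 94.9%, did not pass. In number 37 RPL37B, RPL37C and RPL37AC fell to 86.7%, 89.5% and 89.1% of WT, and RPL37A measured 15.7, 17.9 and 18.3 CPM (WT) against 15.3, 16.5 and 15.1 CPM (hrlp-2) with overlapping groups and did not pass (log2 fold change -0.12, limma adjusted p = 0.3).

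RPL40B, which is made as a fusion with ubiquitin, measured 704, 684 and 665 CPM (WT) against 569.9, 571 and 579 CPM (hrlp-2) and fell to 83.8% of WT (log2 fold change -0.23, SE 0.0221, limma adjusted p = 9.97e-10). RPL41G, for the smallest protein of the subunit, and RPL29A also fell, to 88.9% and 88.1% of WT. RPL38A, the row of number 38, measured 344, 331 and 332 CPM (WT) against 311, 328 and 341 CPM (hrlp-2), with overlapping groups (log2 fold change -0.02, limma adjusted p = 0.661).

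By number, every row fell in 15 of the 30 numbers with at least 2 rows, some rows fell in 12, and no row passed in 3 (numbers 3, 9 and 39). When the small-a forms were counted as separate proteins, these counts were 20, 13 and 3 of 36. Sums over the lettered rows of a number were lower in every hrlp-2 library than in every WT library for 31 of the 35 numbers. The exceptions were 3, 9, 38 and 39. The log2 fold changes of rows of 1 number spanned 0.109 in the median. The 91 shares of a row in its number differed between the group means by 0.47 percentage points in the median, in size. Shares within a number sum to 100%, so a lower share of 1 row goes with a higher share of another. The 8 shares plotted by library were picked as the most different without overlap in their numbers, so their exact permutation p of 0.1 (two-sided, the smallest that 3 against 3 libraries can give) follows from the choice. In the 9 numbers with both forms, 19 of 23 rows of the plain form and 14 of 20 rows of the small-a form fell, with median log2 fold changes of -0.17 and -0.13. Names that can be read as either form, such as RPL23A, count as plain in this split.

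Rows with higher numbers, which mostly name smaller proteins, had lower log2 fold changes. In classes of number that were set after the values were seen, 19 of the 33 rows with numbers 3 to 13 fell, 20 of the 23 rows with numbers 14 to 24, and 34 of the 40 rows with numbers 26 to 41. Their median log2 fold changes were -0.10, -0.15 and -0.22. Across the 96 rows Spearman's rho between log2 fold change and number was -0.47, a description over genes that share the same 6 libraries. The same coefficient with mean CPM was 0.02. Only 11 of the 96 members have a reference length, under the 80% that a check of length needs, so the check is void for them. Length classes were made from tested rows with a locus and a mean of at least 100 CPM, which can include ribosomal protein rows named by locus. In these, 27.2% of the 103 rows with transcripts up to 900 bases fell, 21.5% of the 172 rows of 901 to 1200 bases, 10.6% of the 376 rows of 1201 to 2000 bases, 9.3% of the 214 rows of 2001 to 3000 bases and 19.7% of the 127 longer rows. Their median log2 fold changes were 0.008, -0.001, 0.063, 0.077 and 0.032 in the same order. More rows rose than fell in every class. Of the rows up to 900 bases 29.1% rose, and of those of 901 to 1200 bases 26.7% rose. The part of transcript length in the values of the RPL rows was not tested.

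Genes for making ribosomes were read from a list of 33 factors, of which 21 had a tested row. Of these 9 fell, 0 rose and 12 did not pass by limma (11 lower and 0 higher at an unadjusted p under 0.05), with a median log2 fold change of -0.16. Over all tested rows, 9.31% fell and 11.0% rose at the adjusted threshold. The list summed to 1073 to 1077 CPM in the WT libraries and 948 to 966 CPM in the hrlp-2 libraries. APUM24, a Pumilio protein that acts in ribosomal RNA processing, fell from 35.68, 35.83 and 34.99 CPM (WT) to 28.95, 26.12 and 29.05 CPM (hrlp-2), with a limma adjusted p = 7.07e-05. RRP5, a processing factor of both subunits in yeast, measured 70.81, 73.57 and 70.61 CPM (WT) against 61.67, 54.2 and 54.65 CPM (hrlp-2), with an adjusted p = 3.13e-06. NOF1 and SMO4, both nucleolar factors, had log2 fold changes of -0.31 and -0.25 (adjusted p = 0.000755 and 5.63e-05). Of 7 listed genes of the TOR pathway and its regulators, 5 were tested and 0 passed by limma (1 higher and 0 lower at an unadjusted p under 0.05), among them TOR, the kinase that drives ribosomal protein synthesis, at 45.55 ± 3.5 CPM (WT) against 43.02 ± 2.02 CPM (hrlp-2), with a limma adjusted p = 0.477.

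Of 12 listed markers of dividing cells, which are rich in ribosomes, 11 were tested, 1 rose (CYCB1;2, log2 fold change 0.20, limma adjusted p = 0.0378) and 1 fell (MCM5, log2 fold change -0.19, adjusted p = 0.0229). Over all tested rows, 11.0% rose and 9.31% fell, so these counts are near the share over all rows. The summed level of the markers was 257.7 to 263.6 CPM in WT and 247.3 to 258.5 CPM in hrlp-2, and the groups overlapped. Their part in the values of the RPL rows was not tested.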

How the data were processed

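RNA was measured in 6 libraries made with a strand-marking kit from total RNA, 3 of WT and 3 of hrlp-2, grouped by sample title. The authors deposited 1 table of CPM per library, with the same total in each. The submitters' processing notes name STAR 2.7.3a and TAIR10. For the annotation, the strand setting, the counting tool and reads that match several genes, details were not given in the sources used here. The spacing of low values put 1 CPM at 20.1 to 25.2 reads, with 87.9% to 89.5% of low values on whole steps, so whole reads were not recovered for all genes.

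The members and gene lists were chosen with earlier results of these data known. From the deposited CPM, 18643 of 22759 rows were kept (0.5 CPM or more in 3 or more libraries), divided by trimmed-mean-of-M factors (30% of M and 5% of A trimmed, unweighted), and tested as log2(CPM + 0.5) with limma 3.58.1 in R 4.3.3 (intensity trend, two-sided, Benjamini-Hochberg, threshold 0.05). Fold changes on this scale understate those of weak genes. The fit was also run on simulated data, and no result given here rests on that run. Libraries of a group differed by more than sampling noise (median chi-square per gene 0.789 to 0.916 against 0.455), so none were merged. Shares within a number were compared with an exact permutation test over libraries. Promoters and lengths came from the RefSeq TAIR10.1 genome and annotation.

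Values in every library are given for the 10 largest falls, the 5 highest and 5 lowest members per coding length, the 8 largest separated shares and their partners of the same number. From each list, up to 4 called genes are named. The other members, the lettered RPS rows and TOR were added after their values were seen. Alternatives were other scalings, pseudocounts and filters, the replicate number as a block, each library left out, lengths per transcript and shares by protein name. Grouping by protein identity could not be run, since no protein table was used here.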

Additional observations from a re-analysis of the deposited data

How the results depend on the processing

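The number of members that fell was 74 with relative log expression or upper-quartile scaling, 75 with the deposited values not rescaled, 73 with a pseudocount of 0.1 or 1 CPM, 70 with no filter, 74 with a filter of 1 CPM and 64 to 73 with 1 library left out, the lowest without hrlp-2 replicate 1. By limma, 0 members rose in each of these fits and in the one with a block. The median log2 fold change of the members ran from -0.16 to -0.13. Of the 73 members that fell, 62 kept the call in every fit and 11 lost it in at least 1, all 11 with values given above. Replicate numbers did not pair the samples (correlations of same-numbered deviations -0.008, -0.016 and -0.026), and the fit with the replicate number as a block gave 72 falls, with RPL4D lost. Signs turned under at least 1 fit for 10 members, of which 0 passed by limma. After turning, RPL9B reached -0.016, RPL39B -0.044, RPL18AA -0.003, RPL10A 0.015, RPL10AA 0.013, RPL10AC 0.027, RPL38A 0.013 and RPL39A 0.04. RPL8A was -0.006 with upper-quartile scaling, -0.016 not rescaled, and -0.014 to 0.026 with 1 library left out. RPL30C was -0.0 with relative log expression scaling, -0.007 with upper-quartile scaling, -0.017 not rescaled and -0.021 to 0.016 with 1 library left out. The cause was not tested. Leaving out single libraries, the share of RPL14A differed by -3.55 to -2.78 points, RPL24A by -3.33 to -2.32, RPL21E by -2.65 to -2.01, RPL30B by -2.74 to -1.52, RPL23AA by 1.71 to 2.06, RPL8A by 1.49 to 2.2, RPL7AA by 1.37 to 1.68 and RPL6C by 1.31 to 1.53. Shares by protein name, a grouping chosen after seeing the data, kept these directions. The highest level over the lowest was 48.0 per coding length and 38.5 per transcript length. All tested rows had a median log2 fold change of 0.002, and -0.017 when not rescaled.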
